A study of Mus musculus with 52 samples.

Results

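Of 27525 genes in a table of mouse tumor RNA-seq, 10 genes of high endothelial venules (HEVs) and leukocyte adhesion are described here, chosen by gene name for known roles in these vessels. HEVs are the postcapillary vessels through which blood lymphocytes enter lymph nodes and tertiary lymphoid structures. Their endothelium displays sulphated and fucosylated mucins that lymphocytes bind, together with selectins and immunoglobulin-family adhesion molecules that support rolling and firm arrest. Signals through the lymphotoxin-β receptor (LTβR) are known to maintain this phenotype, and cytokines of inflammation are known to raise E-selectin, ICAM-1 and VCAM-1 on endothelium in general. Glycam1 and Madcam1 encode addressins, Chst4 and Fut7 encode enzymes that build selectin ligands, and Enpp2 and Ackr1 encode proteins at the HEV surface or secreted by it. Sele, Selp, Vcam1 and Icam1 encode adhesion molecules that are not particular to HEVs.

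The samples were 32 subcutaneous KPC tumors, 8 in each of 4 groups, with 1 library per tumor. KPC cells are 1 pancreatic tumor line, taken from Pdx1-Cre mice with a Trp53 LSL.R172H/+ genotype, and were grown in male C57BL/6NHsd mice of 8 to 10 weeks, so these alleles belong to the injected cells in every group and the vessels belong to the host. Mice were left untreated, received the STING agonist ADU-S100 once into the tumor (2 µg), received the agonistic anti-LTβR antibody 4H8 in 4 intraperitoneal doses of 100 µg, or received both (the combination), and tumors were removed on day 14 after the first dose. What the untreated mice, labelled control, were given in place of the agents is not described in the labels. The labels do not tie replicate numbers to a cage or day, and each p-value measures the spread between tumors of a group. How many mice the 8 tumors of a group came from is not given in the sources used here, and the tests treat tumors as independent. Recovered reads per library ran from 12762453 to 15591986, and group medians lay between 14831778 and 15222570. Levels are given as normalized counts, in which the authors scaled each library's reads by a size factor of its own.

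The search of proximal promoters used a table of RefSeq promoters of GRCm38.p6, in which 8 of the 10 members were matched, with 9 promoters. In the 250 bases before each start, a κB consensus was sought, because the NF-κB family acts downstream of LTβR, along with the looser form GGANNTTCC and the STAT palindrome TTCNNNGAA, because STAT factors act downstream of interferons. Both strands were searched. The 4 promoters that held a match are printed 5′ to 3′ on the gene's own strand, to show where the matches lie, with the matches in capitals.
Icam1 promoter: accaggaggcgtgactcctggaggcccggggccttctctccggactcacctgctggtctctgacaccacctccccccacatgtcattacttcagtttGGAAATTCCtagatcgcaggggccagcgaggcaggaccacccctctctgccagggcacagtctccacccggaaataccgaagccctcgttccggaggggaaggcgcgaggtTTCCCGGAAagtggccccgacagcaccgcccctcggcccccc
Sele promoter: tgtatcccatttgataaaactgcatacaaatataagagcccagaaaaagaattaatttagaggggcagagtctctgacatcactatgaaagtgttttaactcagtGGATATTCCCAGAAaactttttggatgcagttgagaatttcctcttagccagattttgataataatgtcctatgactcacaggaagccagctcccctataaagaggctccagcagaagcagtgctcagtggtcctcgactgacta
Madcam1 promoter: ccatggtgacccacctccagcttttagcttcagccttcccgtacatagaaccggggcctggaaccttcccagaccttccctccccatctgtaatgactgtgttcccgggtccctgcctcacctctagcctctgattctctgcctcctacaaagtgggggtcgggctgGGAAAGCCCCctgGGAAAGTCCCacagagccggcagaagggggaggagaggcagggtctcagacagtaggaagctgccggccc
Glycam1 promoter: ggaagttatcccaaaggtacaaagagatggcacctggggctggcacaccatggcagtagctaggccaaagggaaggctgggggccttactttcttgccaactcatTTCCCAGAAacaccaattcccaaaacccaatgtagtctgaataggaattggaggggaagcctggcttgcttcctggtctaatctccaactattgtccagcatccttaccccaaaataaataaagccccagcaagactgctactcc
These windows lie at chr9:21015690-21015939 on the plus strand for Icam1, chr1:164047984-164048233 on the plus strand for Sele, chr10:79664309-79664558 on the plus strand for Madcam1 and chr15:103565082-103565331 on the minus strand for Glycam1. Madcam1 was the 1 member with a κB match, and it held a pair of them, starting 83 and 70 bases before the gene's start. GGANNTTCC was found in Madcam1, where it overlapped the second κB match, in Sele at 145 bases before the start and in Icam1 at 153. TTCNNNGAA was found in Glycam1 at 145 bases before the start, in Icam1 at 42 and in Sele at 140, where it overlapped the GGANNTTCC match. Of 32851 promoters of this length, 7.25% held a κB match, 3.59% held GGANNTTCC and 7.02% held TTCNNNGAA. No match was found in these windows of Chst4, Fut7, Ackr1 and Selp, and Vcam1 and Enpp2 were not searched.

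Between genes, levels are comparable only per length, so normalized counts were divided by the length of the union of exons in GENCODE vM21. In untreated tumors Vcam1 was highest with 126.0 normalized counts per kb (SD 32.6, n = 8) and Icam1 followed with 86.4 (SD 13.7). Enpp2 at 43.0 per kb (SD 14.4), Selp at 35.9 (SD 11.4) and Ackr1 at 26.0 (SD 5.27) stood next, and neighbours among these 3 lay within their spread. Fut7 at 11.2 per kb and Sele at 5.35 came after them. Glycam1 at 0.945 (SD 0.945), Chst4 at 0.482 (SD 0.355) and Madcam1 at 0.255 per kb (SD 0.352) were the lowest. The members that define HEVs most narrowly were therefore the ones with the fewest reads. Over all 8 untreated tumors Glycam1 had 16 reads, Chst4 had 9 and Madcam1 had 3, against 8932 reads for Vcam1. Glycam1, Chst4 and Madcam1 did not pass the filter on low values in any comparison, and the other 7 passed in each. These 3 are described from a fit without the filter, with an exact permutation test beside it.

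**Figure D1:**
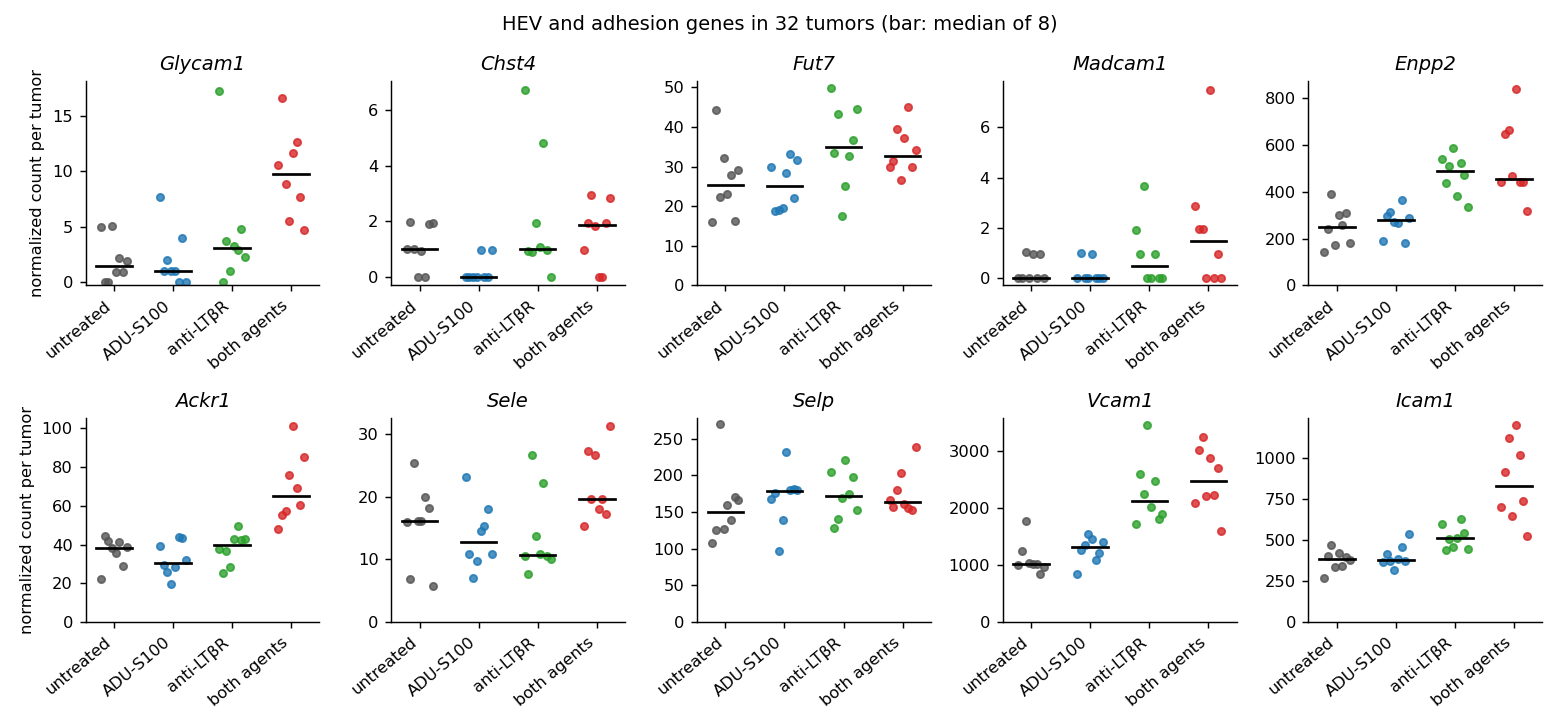
Normalized count (y axis, linear) of each member in each of the 32 tumors, by group (x axis). Points are tumors and bars are medians of 8. Ackr1 and Icam1 lay higher in every tumor given both agents than in every untreated tumor, whereas Vcam1 and Enpp2 were already high with the antibody alone.

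In tumors given both agents against untreated tumors, 4 of the 7 members tested were higher by limma (Benjamini-Hochberg adjusted p under 0.05) and none was lower. Of all 16909 genes tested, 19.6% were higher and 23.6% lower in this comparison. The members that passed were Vcam1, Icam1, Enpp2 and Ackr1, and each rose by about the same factor, with ratios of group means between 1.89 and 2.27. Glycam1, tested without the filter, was also higher. The median log2 difference of the 7 members was 0.89, beside -0.02 for all genes tested. In bulk tumor RNA more vessel cells and more RNA per cell cannot be told apart. With a 2-fold change also required, Vcam1, Icam1 and Enpp2 were left, beside 5.16% of all genes.

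Vcam1 (chr3:116109949-116129688, minus strand, GRCm38) encodes the ligand of integrin α4β1. Its normalized counts spanned 844.4 to 1777.8 without treatment (median 1024.7) and 1599.0 to 3249.1 with both agents (median 2470.1). The 2 groups overlapped only through untreated tumor 3 and combination tumor 8, the highest and the lowest of their groups, and 7 of 8 combination tumors lay above every untreated one. The log2 difference was 1.16 ± 0.15 (SE, n = 8 per group, limma adjusted p = 3.97e-05).

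Icam1 (chr9:21015985-21028817, plus strand) encodes the ligand of the integrin LFA-1. Its normalized counts spanned 270.5 to 466.2 without treatment (median 386.8) and 521.0 to 1195.8 with both agents (median 825.1). Every combination tumor lay above every untreated tumor. The log2 difference was 1.15 ± 0.16 (SE, limma adjusted p = 5.52e-05).

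Ackr1 (chr1:173331886-173333750, minus strand) encodes an atypical chemokine receptor that marks venular endothelium. Its normalized counts spanned 22.1 to 44.3 without treatment (median 38.5) and 47.8 to 101.3 with both agents (median 65.0). As for Icam1, every combination tumor lay above every untreated tumor, which was the case for 2.95% of the 27521 genes above 0 in any of these tumors. The log2 difference was 0.89 ± 0.17 (SE, limma adjusted p = 0.000613). The gene lies within the span of Cadm3 on the same strand, so reads could be shared between them. Cadm3 itself averaged 116.0 normalized counts in untreated (SD 36.6) and 160.5 in combination tumors (SD 66.4), a difference that did not pass the test (log2 difference 0.43, limma adjusted p = 0.15).

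Enpp2 (chr15:54838901-54952892, minus strand) encodes autotaxin, an enzyme that makes lysophosphatidic acid and is secreted by HEVs but also by adipocytes and fibroblasts. Its normalized counts spanned 141.3 to 389.1 without treatment (median 250.8) and 318.3 to 836.6 with both agents (median 453.3). Only combination tumor 8 lay inside the untreated range. The log2 difference was 1.10 ± 0.22 (SE, limma adjusted p = 0.000764). None of the 4 adipocyte markers passed the test in either direction, and all 4 fibroblast markers were higher, their summed level running from 39031 to 64315 normalized counts in untreated and from 63574 to 224572 in combination tumors. The part of these cells in the Enpp2 difference was not tested.

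Glycam1 (chr15:103562759-103565081, minus strand) encodes a secreted mucin that carries selectin ligands and is made in HEVs and in mammary epithelium. Untreated tumors ran from 0 to 5.03 normalized counts with a median of 1.45, from 16 reads in all, and 2 of the 8 had no read. Combination tumors ran from 4.74 to 16.6 with a median of 9.72, from 78 reads in all. Combination tumor 8 was the 1 of 8 that lay inside the untreated range. The mean was 4.87 times as high, and the difference on the scale of log2(normalized count + 1) was 2.05 ± 0.40 (SE, limma without the filter, adjusted p = 0.00098). The two-sided exact permutation test over 12870 splits gave p = 0.000466 (n = 8 per group, 1 of 18 such tests, smallest possible p 0.000155). Without the filter 13.1% of 27521 genes were higher. Of 5 mammary markers only Csn3, a milk casein, was among the genes with values, and it averaged 16.8 normalized counts in untreated (SD 10.2) and 6.82 in combination tumors (SD 3.57). It did not pass the filter, and the part of mammary cells in the Glycam1 difference was not tested.

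The other members did not pass this comparison. Sele (chr1:164048234-164057677, plus strand), which encodes E-selectin, spanned 5.84 to 25.4 normalized counts without treatment (median 16.1) and 15.4 to 31.3 with both agents (median 19.7). Its log2 difference was 0.55 ± 0.27 (SE, limma adjusted p = 0.106). Fut7 (chr2:25423267-25426374, plus strand), the fucosyltransferase needed for selectin ligands on HEVs and also on leukocytes, spanned 16 to 44.3 normalized counts without treatment (median 25.4) and 26.7 to 45 with both agents (median 32.7). Its log2 difference was 0.41 ± 0.19 (SE, limma adjusted p = 0.0937), and without untreated tumor 2 it was 0.53 and passed (adjusted p = 0.0245). For both genes the ranges of the groups overlapped widely.

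Selp (chr1:164115264-164150026, plus strand) encodes P-selectin, which endothelium and platelets store. Normalized counts spanned 107.2 to 269.8 without treatment (median 149.7) and 152.3 to 238.5 with both agents (median 163.7). The log2 difference was 0.19 ± 0.16 (SE, limma adjusted p = 0.332). Untreated tumor 3 alone set the upper end of the untreated range, and without it the difference was 0.31 (adjusted p = 0.0491). Of 5 platelet markers 1 was higher, Itga2b (log2 difference 0.58, adjusted p = 0.0159), and their summed level ran from 546.6 to 921.4 normalized counts in untreated and from 646.0 to 1799.5 in combination tumors.

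Chst4 (chr8:110029153-110039740, minus strand) encodes a sulphotransferase, not the only one, for the HEV epitope read by the antibody MECA-79. It had 9 reads in the 8 untreated tumors and 13 in the 8 combination tumors, with no tumor above 2.95 normalized counts. The difference was 0.23 ± 0.36 on the log2(normalized count + 1) scale (limma without the filter, adjusted p = 0.685, exact permutation p = 0.579). Madcam1 (chr10:79664559-79668537, plus strand), the addressin of mucosal HEVs, had 3 reads in untreated and 15 in combination tumors, 7 of the latter in combination tumor 5. Its difference was 0.77 ± 0.41 on the same scale (adjusted p = 0.184, exact permutation p = 0.1). By edgeR without a filter the Madcam1 difference was 2.03, and by limma without combination tumor 5 it was 0.497 (adjusted p = 0.339), so its size depends on the scale and on 1 tumor.

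With the anti-LTβR antibody alone, Vcam1, Enpp2 and Icam1 were higher than in untreated tumors, which is 3 of the 7 members tested, and none was lower. In this comparison 7.21% of 16691 genes were higher and 8.1% lower. Vcam1 alone also passed a 2-fold change, as did 0.653% of genes in the same direction. Vcam1 ran from 1728.5 to 3456.6 normalized counts (median 2130.1), and the difference of 1.03 ± 0.15 on the log2 scale passed the test (limma adjusted p = 0.000893). Enpp2 ran from 333.1 to 585.1 (median 489.9), with a log2 difference of 0.97 ± 0.18 (limma adjusted p = 0.00424). For Vcam1 7 of 8 and for Enpp2 6 of 8 antibody-treated tumors lay above every untreated tumor.

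Icam1 differed by less under the antibody alone, from 437.2 to 624.4 normalized counts (median 508.6), which was 0.46 ± 0.10 on the log2 scale (limma adjusted p = 0.0105). Ackr1 ran from 25.3 to 49.4 normalized counts, and differed by 0.07 ± 0.17 (limma adjusted p = 0.8). Only 1 antibody-treated tumor lay above the untreated range of Ackr1, and none lay below it. Fut7 differed by 0.42 ± 0.23 (adjusted p = 0.216), Selp by 0.16 ± 0.16 (adjusted p = 0.503) and Sele by -0.13 ± 0.31 (adjusted p = 0.798). Glycam1 had 36 reads in the 8 antibody-treated tumors, 18 of them in tumor 1, and the difference of 0.67 ± 0.52 did not pass (limma without the filter, adjusted p = 0.465, exact permutation p = 0.252). Chst4 differed by 0.42 (exact permutation p = 0.341) and Madcam1 by 0.35 (exact permutation p = 0.373).

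ADU-S100 alone left no member past the test against untreated tumors on day 14. Log2 differences of the 7 tested members lay between -0.17 ± 0.18 for Ackr1 and 0.20 ± 0.14 for Vcam1, with limma adjusted p from 0.472 upward. No gene of 16613 passed by limma (0.0%), although 2408 had an unadjusted p under 0.05. On recovered reads edgeR called 1 gene and DESeq2 called 39. Vcam1 ran from 848.8 to 1543.1 normalized counts and Icam1 from 318.4 to 533.5, and 1 of the 8 lay above every untreated tumor for Icam1 and none for Vcam1. Chst4 had 2 reads in these 8 tumors against 9 in untreated tumors (log2 difference -0.71, limma without the filter, adjusted p = 0.392, exact permutation p = 0.0275).

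**Figure D2:**
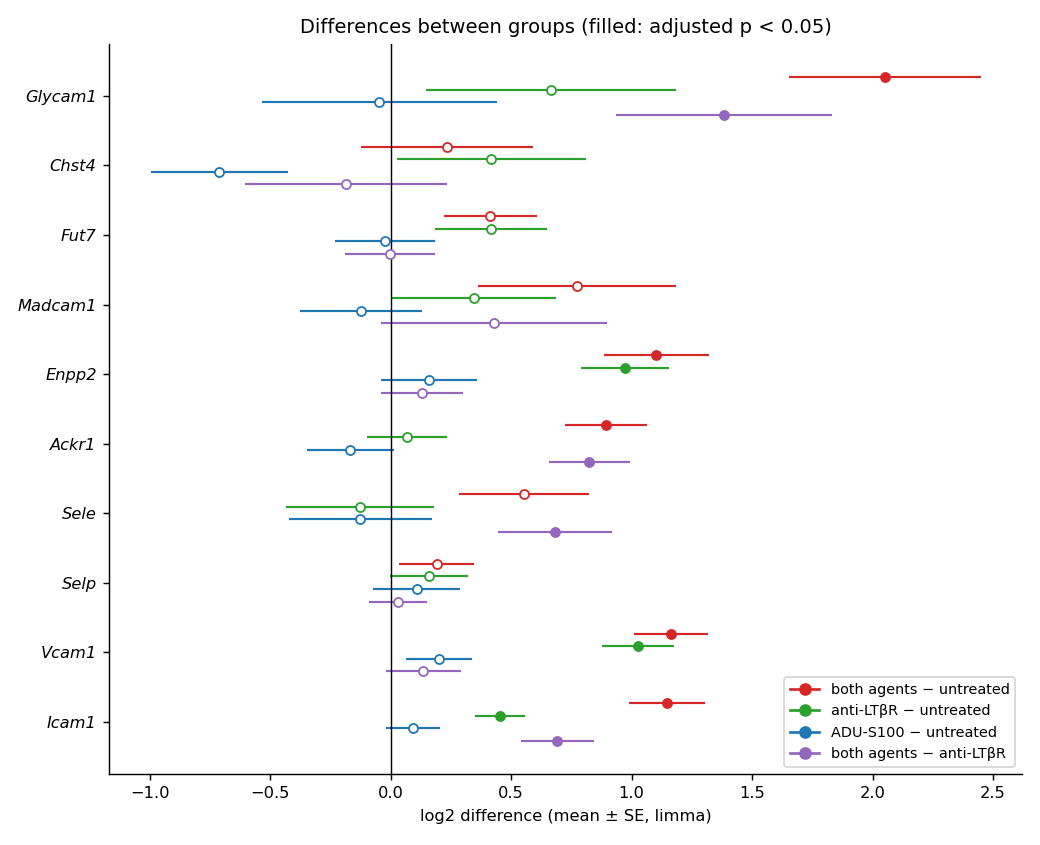
Log2 difference (x axis, mean ± SE from limma, n = 8 tumors per group) of each member (y axis) in 4 comparisons. Filled points have an adjusted p under 0.05, and Glycam1, Chst4 and Madcam1 come from the fit without the filter. Vcam1 and Enpp2 stand apart from 0 with the antibody alone and with both agents, and Ackr1 only where both agents were given.

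The combination was next set against the antibody alone, which asks what adding ADU-S100 changed. Ackr1, Icam1 and Sele were higher with both agents, 3 of the 7 members tested, beside 11.3% of 16932 genes, and none was lower, beside 15.3%. None of the 3 reached 2-fold, as 1.96% of genes did. Ackr1 differed by 0.83 ± 0.17 (limma adjusted p = 0.00263) and Icam1 by 0.69 ± 0.15 (limma adjusted p = 0.00417), and in each case 7 of 8 combination tumors lay above every antibody-treated tumor. Sele ran from 7.64 to 26.7 normalized counts with the antibody alone (median 10.8) and differed by 0.68 ± 0.24 (limma adjusted p = 0.0429). The Sele call was lost under most alternatives, with adjusted p of 0.0641 by edgeR, 0.0618 by DESeq2 and 0.0714 without the filter, and under 12 of the 16 fits that left out 1 tumor (0.0556 to 0.0873). Every one of these fits kept the direction.

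Vcam1 and Enpp2, which had the largest log2 differences of the 7 filtered members with the antibody alone, did not pass between the antibody alone and the combination. Their log2 differences were 0.14 ± 0.16 (limma adjusted p = 0.552) and 0.13 ± 0.17 (adjusted p = 0.61). Fut7 differed by 0.00 ± 0.19 (adjusted p = 0.993) and Selp by 0.03 ± 0.12 (adjusted p = 0.881). Glycam1 ran from 0 to 17.3 normalized counts with the antibody alone (median 3.07), and its difference was 1.39 ± 0.45 (limma without the filter, adjusted p = 0.0479, exact permutation p = 0.0101), where 6.5% of 27505 genes were higher. No combination tumor lay above antibody-treated tumor 1, and edgeR without a filter gave 1.14 for Glycam1 (adjusted p = 0.173). Leaving out 1 tumor ended the Glycam1 call in 13 of 16 fits (adjusted p 0.0533 to 0.0895), and leaving out antibody-treated tumor 1 gave 1.70 (adjusted p = 0.00663).

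Against tumors given ADU-S100 alone, 6 of the 7 members tested were higher in the combination and none was lower, where 20.2% of 16811 genes were higher and 26.0% lower. Icam1 and Ackr1 passed with 2-fold as well, as did 5.46% of genes. Icam1 differed by 1.05, Ackr1 by 1.06, Vcam1 by 0.96, Enpp2 by 0.94, Sele by 0.68 and Fut7 by 0.44 (limma adjusted p from 7.25e-05 for Icam1 to 0.0303 for Fut7). Every combination tumor lay above every ADU-S100 tumor for Ackr1 and Vcam1, which held for 3.15% of genes. The Fut7 call was lost without the filter (adjusted p = 0.0564) and the Sele call with the replicate block (adjusted p = 0.0636). Glycam1 differed by 2.10 (limma without the filter, adjusted p = 0.000941, exact permutation p = 0.000777) and Chst4 by 0.94 (adjusted p = 0.0348, exact permutation p = 0.0219), the latter from 13 reads against 2, where 13.5% of genes were higher. By edgeR without a filter the Chst4 difference was 2.19 (adjusted p = 0.0377). The antibody alone against ADU-S100 alone gave the same members as the antibody against untreated tumors, with Vcam1 at 0.83, Enpp2 at 0.81 and Icam1 at 0.36 (limma adjusted p = 0.006, 0.00725 and 0.04), beside 3.38% of 16649 genes higher and 3.04% lower. The Icam1 call was lost without the filter (adjusted p = 0.0553), with all 4 groups fitted jointly (0.131) and with the replicate block (0.0742). None reached 2-fold, as 0.559% of genes did. Every antibody-treated tumor lay above every ADU-S100 tumor for Vcam1, which held for 0.229% of genes. These comparisons share tumors with those above and are not independent of them.

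Whether the difference with both agents departed from the sum of the single-agent differences on the log2 scale was tested over all 32 tumors. Ackr1 (0.99 ± 0.25, limma adjusted p = 0.00586) and Icam1 (0.60 ± 0.19, adjusted p = 0.0295) were higher than that sum, and 7.33% of 17649 genes were. Vcam1 at -0.07 ± 0.22 (adjusted p = 0.862) and Enpp2 at -0.03 ± 0.27 (adjusted p = 0.957) lay close to it. Sele at 0.81 ± 0.38 (adjusted p = 0.142), and Glycam1 at 1.43 ± 0.68 (without the filter, adjusted p = 0.193), did not pass. Fut7 and Selp were at 0.02 and -0.08. Being higher than the sum was not particular to Ackr1 and Icam1. It held for 10 of 12 blood endothelial markers (median log2 difference 0.70), while 1 was lower, and for 4 of 6 lymphatic and 4 of 4 fibroblast markers.

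Markers of endothelium in general were counted beside the members. Of 12 blood endothelial markers, 11 were higher in combination than in untreated tumors (median log2 difference 0.91), led by Tie1 (1.26), Erg (1.46), Cldn5 (1.48) and Egfl7 (1.43), each with a limma adjusted p of 4.77e-06. The exception was Flt1, named after its value was seen (-0.19, adjusted p = 0.277). Pecam1 averaged 626.0 normalized counts in untreated (SD 86.1) and 1027.4 in combination tumors (SD 135.2), and no combination tumor fell below 867.0. All 6 lymphatic markers were higher (median log2 difference 1.86), with Prox1 at 2.23 and Flt4 at 2.07. The mean log2 level of the 12 blood endothelial genes was 7.77 (SD 0.16) in untreated, 7.73 (SD 0.22) in ADU-S100, 8.08 (SD 0.13) in antibody-treated and 8.71 (SD 0.18) in combination tumors, and all 8 combination tumors lay above every tumor of the other groups. The summed level of the 12 genes, which the most abundant of them set, ran from 6982.7 to 11213.5 normalized counts without treatment and from 9935.3 to 11173.4 with both agents, so the ranges of the sum overlapped. With the antibody alone 5 of the 12 were higher.

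Each gene was therefore also expressed relative to these 12 genes, by subtracting their mean log2 level in the same tumor. For the combination against untreated tumors the median log2 difference of all genes was then -0.96, and 80.7% of genes were lower and 1.54% higher. On this scale the 4 members that had passed no longer did so, with Vcam1 at 0.22 ± 0.16 (limma adjusted p = 0.207), Icam1 at 0.20 ± 0.14 (adjusted p = 0.196), Enpp2 at 0.16 ± 0.20 (adjusted p = 0.469) and Ackr1 at -0.05 ± 0.17 (adjusted p = 0.793). Glycam1 remained higher, by 1.11 ± 0.43 (limma without the filter, adjusted p = 0.0278), where 1.04% of genes were higher. Selp (-0.75 ± 0.16, adjusted p = 0.000342) and Fut7 (-0.53 ± 0.20, adjusted p = 0.0201) were lower relative to the endothelial genes. With Pecam1 and Cdh5 alone as the reference, Vcam1 (0.35, adjusted p = 0.0351) and Icam1 (0.34, adjusted p = 0.0444) passed, Ackr1 was at 0.09 and Fut7 no longer passed (adjusted p = 0.0809).

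With the antibody alone 2 members passed on this scale. Vcam1 (0.71 ± 0.16, limma adjusted p = 0.00244) and Enpp2 (0.66 ± 0.16, adjusted p = 0.00358) stayed higher than in untreated tumors relative to the endothelial genes, beside 1.49% of genes higher and 51.4% lower, and the median of all genes was -0.31. Icam1 did not pass (0.14 ± 0.09, adjusted p = 0.172). With the antibody alone, 4 of 6 lymphatic, 2 of 4 macrophage, 2 of 5 T cell and 1 of 5 B cell markers were also higher in normalized counts. Relative to the 12 genes, 3 of the 6 lymphatic markers were higher and 1 was lower. The part of these cells in the member differences was not tested. Between the combination and the antibody alone, Vcam1 (-0.49, adjusted p = 0.0174), Enpp2 (-0.50, adjusted p = 0.0119), Fut7 (-0.63, adjusted p = 0.00462) and Selp (-0.60, adjusted p = 0.000595) were lower on this scale, as were 77.9% of all genes, while 1.59% were higher. Ackr1 (0.20, adjusted p = 0.255) and Icam1 (0.06, adjusted p = 0.67) were not, and the median of all genes was -0.66. Glycam1 did not pass on this scale in either of these comparisons, with 0.76 for the combination against the antibody alone (limma without the filter, adjusted p = 0.131) and 0.35 for the antibody against untreated tumors (adjusted p = 0.645).

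**Figure D3:**
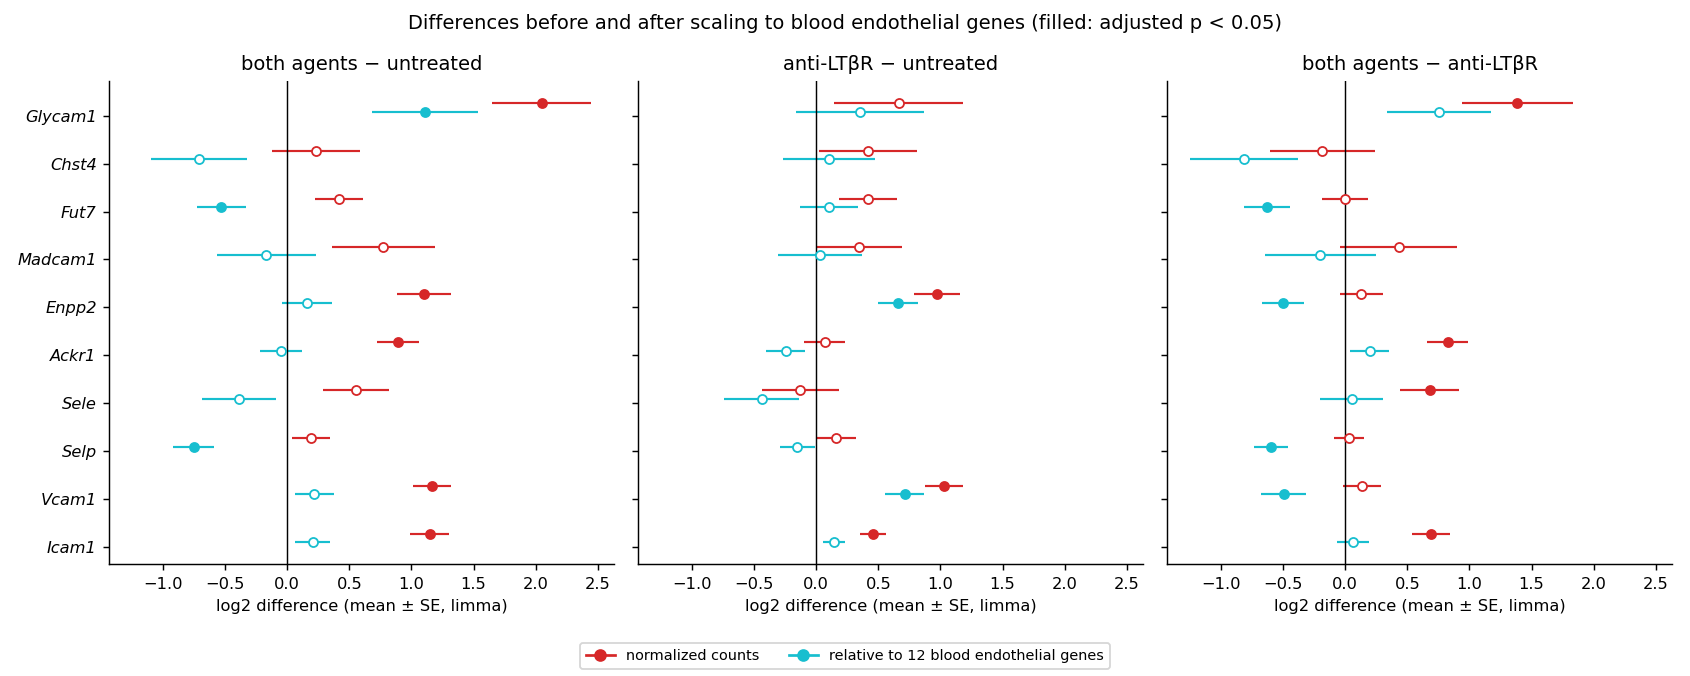
Log2 differences (x axis, mean ± SE from limma) of each member (y axis) from normalized counts and relative to 12 blood endothelial genes, in 3 comparisons. Filled points have an adjusted p under 0.05. Against untreated tumors, Vcam1 and Enpp2 stayed above 0 on the relative scale with the antibody alone, and Glycam1 with the combination.

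Genes that act with the members were counted from lists, to be read beside the 19.6% of all genes that were higher and the 23.6% that were lower in this comparison. Among 11 genes for the synthesis or protein cores of selectin ligands, 3 were higher in combination than in untreated tumors and 3 were lower, with a median log2 difference of 0.07. Cd34, a sialomucin of endothelium that HEVs decorate with selectin ligands, rose by 1.37 (limma adjusted p = 0.000217). Podxl, a related sialomucin that epithelial cells also make, fell by 1.00 (adjusted p = 1.83e-06), as did the sialyltransferase St3gal4 by 0.75 (adjusted p = 8.13e-05) and the glycosyltransferase B3gnt3 by 0.31 (adjusted p = 0.000143). Of 4 epithelial markers of the tumor cells 3 fell, among them Krt18 by 1.46 and Krt8 by 0.92, and the part of tumor cells in these differences was not tested.

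On the leukocyte side, 4 of 11 counter-receptor genes were higher and 2 lower in combination than in untreated tumors (median log2 difference 0.20). Itgal and Itgb2, the subunits of LFA-1 that bind ICAM-1, rose by 0.82 (limma adjusted p = 0.000895) and 0.78 (adjusted p = 0.000142). Itga4, the α4 integrin that binds VCAM-1, named after its value was seen, rose by 0.71 (adjusted p = 0.00439). Cd44 and Itgb1 fell, by 0.50 and 0.27 (adjusted p = 5.67e-05 and 0.000923). Ptprc, the pan-leukocyte gene CD45, rose by 0.59 (adjusted p = 0.000128), and all 5 T cell, 4 of 5 B cell, 3 of 4 macrophage and 1 of 4 neutrophil markers were higher. The summed level of the macrophage markers ran from 6219.8 to 10856.7 normalized counts without treatment and from 9016.0 to 13656.6 with both agents, and their part in the Vcam1 and Icam1 differences was not tested.

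Of 9 genes of endothelial adhesion and transmigration, of which Pecam1, Cdh5 and Esam are also among the 12 blood endothelial markers, 6 were higher and 2 lower, with Cdh5 at 0.90 (limma adjusted p = 4.8e-06) and Vwf at 0.83 (adjusted p = 3.79e-05) among the former and Jam2 at -0.67 (adjusted p = 0.00015) among the latter. Of 7 lymphoid chemokine and receptor genes 3 were higher, Ccl21a (1.93, adjusted p = 5.52e-05), Cxcl12 (1.04, adjusted p = 0.00026) and Cxcr4 (0.82, adjusted p = 8.24e-05). Cxcl13, the B cell chemokine of follicles, was at -0.96 and did not pass (adjusted p = 0.0727). Of 10 LTβR pathway genes 3 were higher: the ligand genes Ltb (0.90, adjusted p = 0.00148) and Lta (1.21, adjusted p = 0.0177), and Traf3 (0.26, adjusted p = 0.0031). Lta was low, with a mean of 8.35 without treatment (SD 4.51) and 20.6 with both agents (SD 12.3). The filter removed Lta from every comparison that left out the combination, so its entry into this test depended on the combination tumors. Ltbr itself averaged 1380.8 normalized counts in untreated (SD 181.2) and 1239.8 in combination tumors (SD 80.0), and did not pass (log2 difference -0.15, adjusted p = 0.106).

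How the members varied from tumor to tumor was described by correlating deviations from the group means over the 32 tumors. Enpp2 went most closely with Icam1 (r = 0.696), then with Madcam1 (r = 0.572) and Vcam1 (r = 0.556), and Fut7 with Ackr1 (r = 0.49). Glycam1 did not follow them: its lowest values of r were with Vcam1 (-0.424) and Enpp2 (-0.316). All members of a tumor share 1 library and its size factor, and the values of Glycam1, Chst4 and Madcam1 rest on a few reads. Among 17028 genes with a mean of at least 10 normalized counts, those whose deviations were most like Glycam1 were Garin5a (r = 0.761), Mvd (0.683) and Gm17322 (0.639). For Chst4 they were Casc1 (0.646), Gm4610 (0.621) and Sprr2j-ps (0.613), and for Madcam1 they were Colgalt1 (0.802), Usp40 (0.683) and Snx18 (0.683). None of these 9 genes is a member or on a list used here, and such ranks among many genes single out high values by construction.

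**Figure D4:**
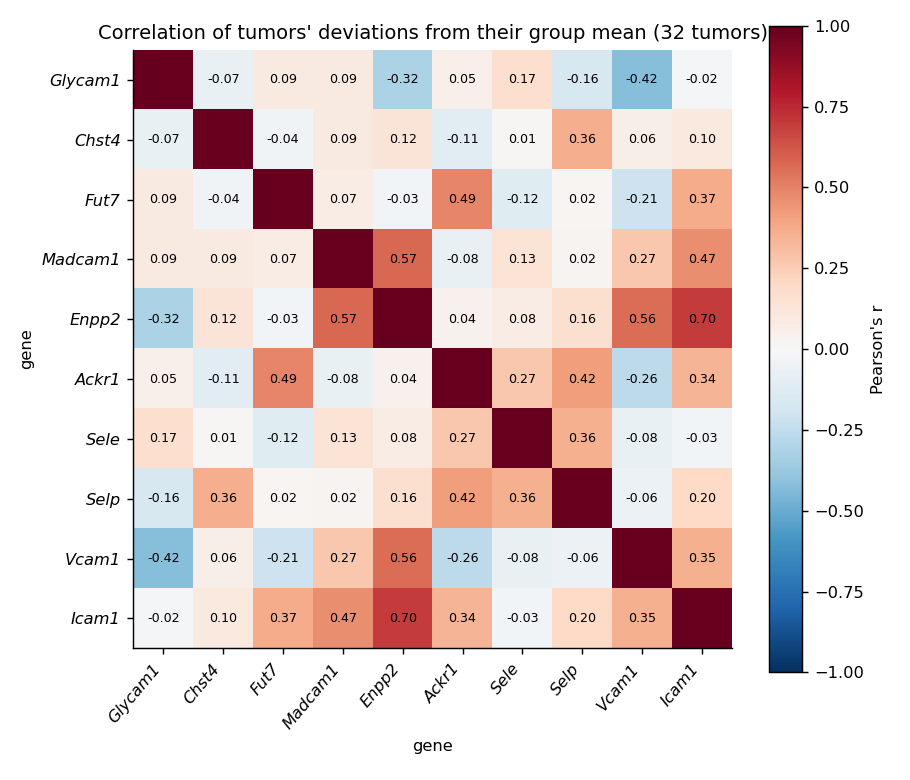
Pearson's r between members (both axes) of the deviations of log2(normalized count + 1) from the group mean, over 32 tumors in 4 groups. The colour runs from -1 to 1. Enpp2 and Icam1 form the closest pair at 0.70, and Glycam1 with Vcam1 the lowest at -0.42.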

How the data were processed

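Normalized counts were analysed for 32 tumor libraries in 4 labelled groups. The authors deposited them as a signal, in which a size factor of its own scales each library's reads, in a table of 27525 genes, and deposited a second table of the same signal for 52 libraries normalized together. HISAT2, StringTie, STAR and Partek are named in the submitters' processing notes and which of them made each table was not settled. Libraries were dUTP-stranded, and whether counting used strand is not given in the sources used here. Enpp2, Selp, Vcam1 and Icam1 overlap noncoding genes on the other strand. In the larger table whole reads were recovered by dividing by the worth of 1 read (100.0% of values whole within 0.01), and per-sample columns left unused number 0. The deposited gene set enrichment table (enrichment scores, p-values and false discovery rates of the authors' own comparisons) was not used. The notes name the build mm39, no genome of which was used here, so positions and exon lengths were taken from GENCODE vM21 (GRCm38).

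Tests were made with limma 3.58.1 (R 4.3.3, two-sided trend test) on log2(normalized count + 1), which understates changes of low genes, after filterByExpr of edgeR 4.0.16 with a minimum of 10. P-values were adjusted by Benjamini-Hochberg over all genes tested, and a gene passed at 0.05. Each comparison used its own 16 libraries and the interaction used all 32. DESeq2 1.42.0 and edgeR were run on recovered reads as alternatives, beside no filter, a pseudocount of 0.1, all 4 groups fitted jointly, a block for the replicate number, a further 2-fold change, and each library left out in turn for 4 of the comparisons. Chosen after seeing the data were edgeR without a filter and leaving out libraries without a filter, for Glycam1, Chst4 and Madcam1. Genes could be named by a rule that took all 10 members, from each list up to 4 genes with the smallest adjusted p in combination against untreated tumors, Pecam1, Cdh5, Cd34, Ltbr and Ptprc, and the 3 genes whose deviations from the group means correlated most with each of Glycam1, Chst4 and Madcam1. Not every gene that the rule admits is reported here. Flt1, Itga4, Esam, Csn3 and, for its overlap with Ackr1, Cadm3 are named outside it. Members and lists were chosen with earlier results of these data known. The replicate numbers come from the labels, and tumors that share a number were in different treatment groups. The correlation of same-numbered tumors' deviations averaged between -0.0855 and 0.186 over the 6 comparisons, so the numbers were not used as pairs.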

Additional observations from a re-analysis of the deposited data

Results flagged for a closer look

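Of 40 sets of 8 tumors (10 genes in 4 groups), 4 held 1 tumor far from the rest, judged by its gap to the nearest tumor over the range. For normally distributed values chance gives about 1 in 20. That rate need not hold for these counts on a linear scale, least of all for Glycam1 and Madcam1 with their few reads. Antibody-treated tumor 1 had 17.3 normalized counts of Glycam1, against 4.83 in the next tumor. Combination tumor 5 had 7.47 of Madcam1, from 7 reads, against 2.88 in the next. Untreated tumor 3 was far from the rest for Selp (269.8 against 171.1) and for Vcam1 (1777.8 against 1253.8).

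The difference with both agents departed from the sum of the single-agent differences for Ackr1 by 0.99 (limma adjusted p = 0.00586) and for Icam1 by 0.60 (adjusted p = 0.0295), on the log2 scale. Of 12 blood endothelial markers 10 were likewise higher than the sum and 1 was lower.

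The larger table also holds 20 libraries of another experiment that enter no comparison here, and reads of every member appear in them. In its 5 libraries that carry the combination in all their labels, median normalized counts were 97.2 for Glycam1, 2.88 for Chst4, 3.78 for Madcam1, 39.9 for Fut7, 624.8 for Enpp2, 147.3 for Ackr1, 26.1 for Sele, 239.3 for Selp, 2295.2 for Vcam1 and 859.9 for Icam1. Glycam1 ran from 14.8 to 181.3 in these 5 libraries, where the 8 combination tumors described above ran from 4.74 to 16.6 on the scale of their own table. Library 3 of the 5 had 8716257 recovered reads in all and stood apart for Fut7 (215.3) and Enpp2 (132.2). It also had the highest Glycam1, where the next library had 111.1, the highest Icam1 (1601.6, next 936.7) and the lowest Vcam1 (834.8, next 1904.3). In library 3, 1 read was worth 3.78 normalized counts, against 0.817 to 0.959 in the others of the 5. Its high values therefore rest in part on its size factor. The Madcam1 median of 3.78 is the value of library 3 and equals 1 read. The tables were normalized separately, and no test was made between the experiments.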

How the results depend on the processing

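The 4 calls for the combination against untreated tumors (Vcam1, Icam1, Enpp2 and Ackr1) and the 3 for the antibody alone kept direction and call under edgeR, DESeq2, no filter, a pseudocount of 0.1, the joint fit, the block and each library left out. Requiring a 2-fold change left 1 of 3 members for the antibody against untreated tumors, 0 of 3 for the combination against the antibody, 2 of 6 for the combination against ADU-S100 and 0 of 3 for the antibody against ADU-S100. With the replicate block, the calls lost were Sele in the combination against the antibody (adjusted p = 0.0722) and against ADU-S100 (0.0636) and Icam1 in the antibody against ADU-S100 (0.0742), and pairing changed no other call among the 7 members that passed the filter. The block was not run for Glycam1, Chst4 and Madcam1. Icam1 in that last comparison was also lost without the filter (0.0553) and in the joint fit (0.131), and Fut7 in the combination against ADU-S100 in the joint fit (0.0736) and in 7 of the fits without 1 library (0.0513 to 0.0634). The joint fit also lost Sele in the combination against the antibody (0.0659).

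Differences near 0 changed sign. This was so for Sele in the antibody against ADU-S100 (0.0507 by edgeR and 0.0468 by DESeq2), the Enpp2 interaction (0.0711 and 0.0778), Glycam1 in ADU-S100 against untreated tumors (0.0241 by edgeR without a filter) and Ackr1 relative to Pecam1 and Cdh5 (0.0854). Leaving out 1 library gave ranges across 0 for Ackr1 in the antibody against untreated tumors (-0.0279 to 0.146), Selp in the combination against ADU-S100 (-0.0259 to 0.153), and Chst4 (-0.381 to 0.0403), Fut7 (-0.133 to 0.0752) and Selp (-0.0335 to 0.0825) in the combination against the antibody. Counts over all genes moved most for ADU-S100 against untreated tumors (0 by limma, 1 by edgeR and in the joint fit, 2 with the block, 39 by DESeq2), for the antibody against ADU-S100 (1069, but 1636 by DESeq2, 710 without the filter, 475 jointly and 445 with the block) and for the antibody against untreated tumors (2555, but 1660 with the block, 1582 without untreated tumor 1 and 1665 without antibody-treated tumor 7). A 2-fold change left 1034, 173, 357, 1038 and 100 genes in the comparisons other than ADU-S100 against untreated tumors. The causes were not tested. Glycam1, Chst4 and Madcam1 had at most 78 reads in the 8 tumors of a group.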

Other observations

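In the other experiment of the larger table, 15 libraries have labels that contradict each other and were put in no group. Over these 15, Glycam1 ran from 0 to 50.7 normalized counts with a median of 5.03, Ackr1 from 13.4 to 120.7 with a median of 45.4, and Icam1 from 295.5 to 1196.3 with a median of 529.8. Vcam1 ran from 1084.0 to 6496.8 with a median of 2102.2 and Enpp2 from 140.5 to 1887.8 with a median of 286.0. Chst4 reached 13.8 and Madcam1 2.62, with medians of 0.878 and 0.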
